A study of Mus musculus with 36 samples.

Results

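The 8 libraries described here hold the RNA of mouse striatum that stayed unbound in a ribosome pull-down, 4 labelled IL34-KO and 4 labelled control. They were chosen by their labels from the 36 samples of the series and are described across all 22380 genes of the table. In translating ribosome affinity purification, ribosomes of 1 cell type carry the protein L10a fused to green fluorescent protein and are collected with antibodies to it, here from dopamine D1 receptor neurons, and the unbound RNA is the remainder, from all cells of the tissue. The animals labelled IL34-KO carried Drd1-eGFPL10a, Drd1-Cre and Il34-/- per their source label, with the genotype IL34-KO. The animals labelled control carried Drd1-eGFPL10a and, per the same label, also Il34-/-, with the genotype control. Both groups thus share the tag and the written Il34-/- allele, and Drd1-Cre, a recombinase under the D1 receptor promoter, was named for the IL34-KO group alone. Age and treatment were not given for these animals. The labels do not say whether each library came from its own animal, so the p-values below measure the spread between these libraries, which may in part be technical.

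Interleukin-34, the product of Il34, and colony stimulating factor 1, the product of Csf1, are the ligands of Csf1r, a receptor tyrosine kinase that microglia need for survival and upkeep. In the adult forebrain Il34 is made mainly by neurons, and Csf1 mainly by glia. Microglia at rest are known by a set of surface receptors and enzymes, among them P2ry12, Tmem119, Cx3cr1 and Siglech, which is called the homeostatic set. Since microglia are a small share of the cells of the striatum, their transcripts are dilute in whole-tissue RNA. In bulk samples of this kind, fewer cells of a type and less RNA per cell cannot be told apart.

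The recovered depth in genes was 16.3 to 29.1 M reads in the IL34-KO libraries and 11.3 to 22.9 M in the controls, and levels are given in RPKM, a read number corrected for gene length and library size. The striatal markers Drd2, Penk, Tac1, Adora2a and Drd1a were present in all 8 libraries. Some libraries stood apart. All 13 cortical and other glutamatergic markers were detected, and their summed level was 27.3 to 119.9 RPKM in IL34-KO and 27.7 to 94.3 RPKM in control. The highest library of each group was library 1, where Slc17a7, the vesicular glutamate transporter of cortical neurons, stood at 21.3 RPKM in IL34-KO and 17.1 RPKM in control, against 1.08 to 2.82 RPKM in the other IL34-KO libraries and 2.11 to 5.89 RPKM in the other controls. IL34-KO library 1 also held the most RNA of 7 blood cell genes (50.8 RPKM summed, against 7.96 to 21.8 RPKM in the controls). Prl and Gh, hormone genes of the pituitary, reached 4.27 and 9.37 RPKM (Prl) and 2.28 and 11 RPKM (Gh) in IL34-KO libraries 3 and 4, against at most 0.151 and 0.327 RPKM in control. The Y-linked Ddx3y exceeded 1 RPKM in 2 of 4 IL34-KO libraries and in 2 of 4 controls.

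The targeted gene did not separate the libraries labelled IL34-KO from the controls by its whole-gene level. Il34 (ENSMUSG00000031750, chromosome 8, 110741829 to 110805924, minus strand, GRCm38, GENCODE M21) had 3.14, 2.29, 2.02 and 2.61 RPKM in the IL34-KO unbound libraries, against 2.57, 2.66, 2.80 and 3.37 RPKM in the controls. The ranges overlapped, with a mean of 2.51 ± 0.481 RPKM in IL34-KO and 2.85 ± 0.360 RPKM in control (SD, n = 4 each; log2 change -0.14, 95% interval -0.37 to 0.10, limma adjusted p = 1). In the D1 neuron pull-downs it was more abundant, at 11.1, 9.84 and 9.90 RPKM in IL34-KO and 6.56, 9.87, 9.19 and 10.5 RPKM in control. Which exons the allele lacks is not stated in the labels, so transcripts with a missing part may be counted in these values, and the expression level does not check the genotype. Every direction below is therefore drawn between libraries labelled IL34-KO and libraries labelled control.

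The second ligand and the receptor differed from each other in pattern. Csf1 had 1.80, 1.18, 1.23 and 1.03 RPKM in IL34-KO and 1.27, 1.61, 1.51 and 1.07 RPKM in control, with overlapping ranges (log2 change -0.04, adjusted p = 1). Csf1r had 2.45, 1.75, 1.39 and 1.76 RPKM in IL34-KO, against 2.50, 3.23, 2.92 and 3.17 RPKM in control. All 4 IL34-KO libraries lay below all 4 controls, library 1 of the IL34-KO group only just, and the ratio of the means was 0.621 (log2 change -0.49 ± 0.11 SE, unadjusted p = 0.000947, limma adjusted p = 1). Ptprz1, a phosphatase of astrocytes and precursors that also binds interleukin-34, averaged 13 ± 1.14 RPKM in IL34-KO and 12.5 ± 1.13 RPKM in control.

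**Figure D1:**
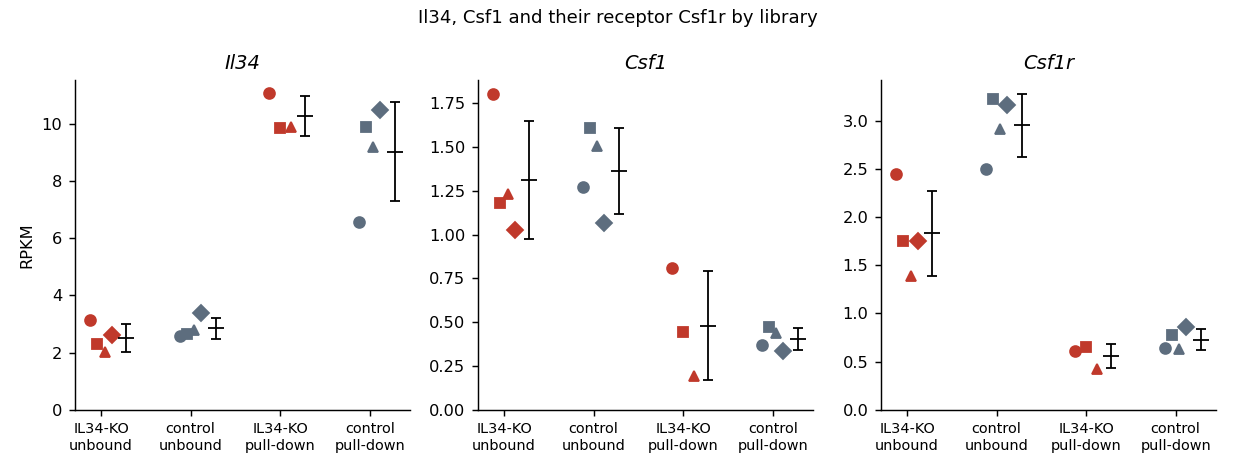
RPKM of Il34, Csf1 and Csf1r in each library (points, 1 shape per library number) of the unbound RNA and the D1 neuron pull-down, IL34-KO in red and control in grey, with the mean and SD as black bars beside them. Csf1r is the gene of the 3 whose unbound groups do not overlap (1.39 to 2.45 RPKM in IL34-KO, 2.50 to 3.23 RPKM in control).

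Across all genes, no single gene passed the test. Of 9853 genes with a mean of at least 1 RPKM, limma with Benjamini-Hochberg adjustment called 0 lower and 0 higher (0% of those tested), and limma voom on the recovered reads also called 0. With an unadjusted p under 0.05 there were 72 lower and 15 higher genes (0.731% and 0.152%, together 0.883%), against 493 expected on average if no gene differed, while voom gave 59 lower and 28 higher. After each library was scaled to a common median, 54 were lower and 60 higher, so the excess of lower genes depended on the scaling. The first principal component held 48.6% of the variance between libraries, with IL34-KO library 1 and control library 4 at its ends. Many of the lower genes with the smallest p were microglial. Of the 25 lower genes with the smallest p, 17 were on the list of 48 homeostatic microglial genes, and of the 25 higher genes 0 were. The list held 27 of the 9853 genes tested, so 0 of 25 higher genes is near its share.

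Homeostatic microglial genes were lower as a group in the libraries labelled IL34-KO. All 48 were detected in 2 or more libraries, 46 had a lower mean of log2 values in IL34-KO and 2 a higher one, and the median ratio of mean RPKM was 0.668, against 0.974 for all 17392 detected genes. In 23 of the 48, all 4 IL34-KO libraries lay below all 4 controls, and in 0 all 4 lay above, whereas 1.1% of all detected genes lay wholly below and 0.397% wholly above. Without a filter on low values, 33 of the 48 were lower with an unadjusted p under 0.05, against 1.93% of all genes, and 0 were higher. With the filter, 27 of the 48 were tested and 0 passed the adjusted threshold. The members were not independent of one another, since libraries low in 1 were mostly low in the others. Over the 48 genes, the median level relative to the control mean was 0.844, 0.609, 0.445 and 0.723 in IL34-KO libraries 1 to 4, against 0.944, 1.06, 0.984 and 1.03 in control libraries 1 to 4. The 4 controls thus lay close together, and the IL34-KO libraries were lower and more spread, library 3 lowest and library 1 nearest to the controls.

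The purinergic receptors that microglia use to sense extracellular nucleotides included the member with the largest log2 change of the list. P2ry12 (ENSMUSG00000036353, chromosome 3, 59216272 to 59262871, minus strand), the ADP receptor that steers microglial processes, had 3.89, 2.65, 1.74 and 3.71 RPKM in IL34-KO and 5.99, 6.16, 5.0 and 6.23 RPKM in control. The groups were clearly apart, with a ratio of means of 0.513 (log2 change -0.81 ± 0.16 SE, 95% interval -1.16 to -0.46, unadjusted p = 0.000257, adjusted p = 0.678 by limma). P2ry13, its neighbour on chromosome 3 and also an ADP receptor, had 0.750, 0.469, 0.408 and 1.21 RPKM in IL34-KO and 1.29, 1.62, 1.14 and 1.89 RPKM in control, so that 1 IL34-KO library exceeded 1 control. P2ry6, the UDP receptor linked to phagocytosis, averaged 0.226 ± 0.118 RPKM in IL34-KO and 0.439 ± 0.143 RPKM in control, below the filter for a test.

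Other surface proteins showed the same order of groups. Cx3cr1, the receptor for the neuronal chemokine fractalkine, had 1.17, 0.928, 0.543 and 1.25 RPKM in IL34-KO and 1.40, 2.27, 1.63 and 2.26 RPKM in control (ratio 0.513, adjusted p = 1 by limma). Tmem119, a membrane protein used to tell microglia from other macrophages (chromosome 5, 113793729 to 113800516), had 1.16, 1.12, 0.833 and 1.31 RPKM in IL34-KO and 1.53, 2.29, 2.37 and 1.94 RPKM in control (log2 change -0.52 ± 0.11 SE, adjusted p = 0.734). Neither pair of groups overlapped. Siglech, a sialic acid-binding lectin (chromosome 7, 55768178 to 55778925), had 1.28, 0.794, 0.751 and 1.10 RPKM in IL34-KO and 1.73, 1.86, 1.79 and 2.18 RPKM in control, and had the smallest p of the list (log2 change -0.55 ± 0.10 SE, unadjusted p = 0.000126, adjusted p = 0.622). Selplg, the ligand of P-selectin (chromosome 5, 113818536 to 113832644), had 1.35, 1.08, 0.765 and 0.893 RPKM in IL34-KO and 1.80, 1.64, 1.91 and 2.36 RPKM in control (adjusted p = 0.678). These were again groups without overlap.

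Lysosomal, adaptor and integrin genes also had lower levels in IL34-KO. Ctss, the lysosomal protease cathepsin S, had 11.6, 8.41, 6.20 and 9.17 RPKM in IL34-KO and 13.7, 14.2, 10.8 and 12.5 RPKM in control (ratio 0.690). These groups overlapped by IL34-KO library 1 alone. Tyrobp and Fcer1g, adaptors that carry the signals of Trem2 and of Fc receptors, had ratios of 0.658 and 0.677, and Trem2 itself one of 0.755. Itgam, the integrin chain CD11b, and Laptm5, a lysosomal membrane protein of blood-derived and microglial cells, had ratios of 0.581 and 0.568. Aif1, the actin-binding protein Iba1 by which microglia are commonly stained, averaged 1.22 ± 0.516 RPKM in IL34-KO and 2.08 ± 0.171 RPKM in control, without overlap.

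Regulators of the microglial state were lower too, while some other members were near their control levels. Whether expression in other cells of the tissue plays a part in this was not tested. Sall1, a zinc finger factor that maintains microglial identity, had 2.45, 1.96, 1.76 and 2.35 RPKM in IL34-KO and 2.80, 3.43, 2.62 and 2.88 RPKM in control (ratio 0.726). Tgfbr1, the type I receptor of the TGF-beta signal that microglia need, had 1.72, 1.87, 1.46 and 1.82 RPKM in IL34-KO and 2.38, 2.34, 2.36 and 2.56 RPKM in control (log2 change -0.33 ± 0.08 SE, unadjusted p = 0.00141), and Tgfbr2, the type II receptor, averaged 0.283 ± 0.0530 RPKM in IL34-KO and 0.470 ± 0.0309 RPKM in control. Irf8, a myeloid transcription factor, averaged 0.252 ± 0.0746 RPKM in IL34-KO and 0.367 ± 0.0143 RPKM in control. For none of these genes did the groups overlap. Mef2c, a factor that forebrain neurons also express, had a ratio of 0.958, Mertk, a phagocytic receptor shared with astrocytes, 0.995, the lysosomal protease Lgmn 0.997 and the lysosomal protein Cd68 0.924. Mef2c moved with the cortical markers, at 42.5 RPKM in IL34-KO library 1 and 41.1 RPKM in control library 1 against 21.7 to 31.1 RPKM in the other 6. The 2 members with a higher mean, Ltc4s (0.264 ± 0.145 RPKM in IL34-KO, 0.143 ± 0.0951 RPKM in control) and Gpr84 (0.190 ± 0.118 and 0.180 ± 0.0527 RPKM), were near the lower end of measurement and overlapped.

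**Figure D2:**
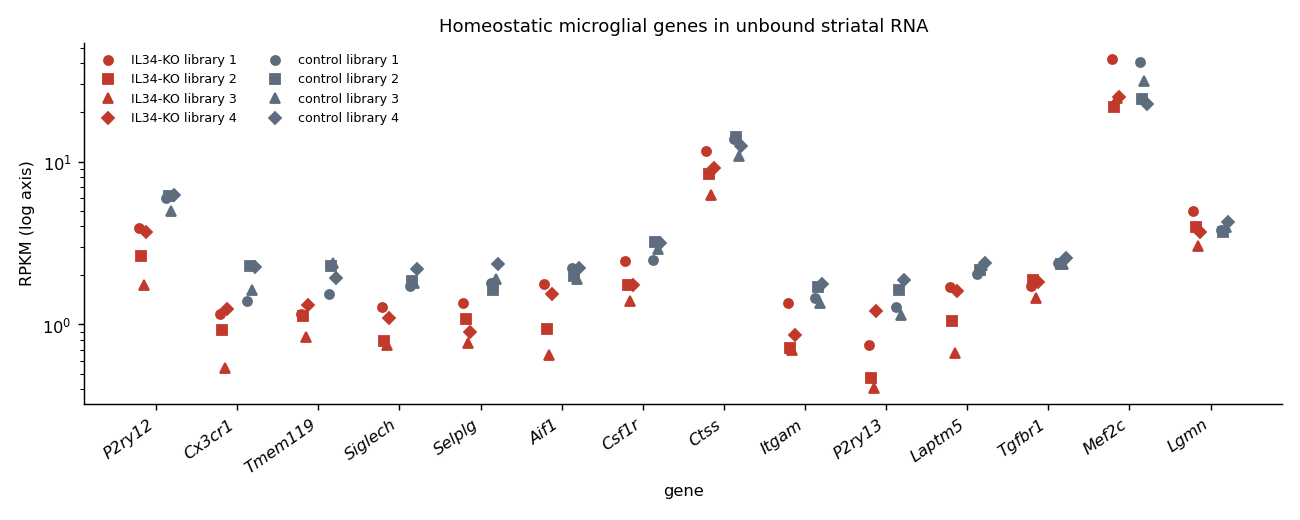
RPKM on a log axis of 14 genes of the homeostatic microglial list in each unbound library, IL34-KO in red and control in grey, with 1 shape per library number. P2ry12, Siglech, Selplg, Tmem119, Aif1, Csf1r and Tgfbr1 show groups without overlap, while Mef2c and Lgmn, with ratios of 0.958 and 0.997, overlap.

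The promoters of the listed homeostatic genes were read for the core motif of the PU.1 family of factors, which drives many myeloid genes. Of the 48 genes, 33 matched an entry in the RefSeq promoter table on GRCm38.p6. GAGGAA, on either strand, was present in the 250 bases before the first listed start of 16 of these 33 genes (48.5%), against 23.1% of 27025 genes in the table, and GAGGAAGT, which contains it, in 3 of 33 (9.09%) against 2.44%. The promoters of 4 members with a small p that held the motif are shown 5′ to 3′ on the gene's strand because they hold the shared letters, with each match in capitals (TTCCTC is GAGGAA on the other strand). They are Hpgds, a prostaglandin D synthase (chr6:65144731-65144980, minus strand), Laptm5 (chr4:130913066-130913315, plus strand), Itgam (chr7:128062390-128062639, plus strand) and P2ry13 (chr3:59210883-59211132, minus strand). The starts of Hpgds and Laptm5 differ in GENCODE M21 (65144908 and 130913125), so by those positions both stretches lie in part inside the gene. A match describes letters and not a bound site. The list was chosen as microglial and set against all genes, so its share with the motif does not bear on the difference between the groups. A relation of the motif to the lower levels was not tested. Hpgds averaged 0.749 ± 0.226 RPKM in IL34-KO and 1.34 ± 0.219 RPKM in control, and Itgam 0.909 ± 0.304 and 1.57 ± 0.205 RPKM in the same order.
Hpgds: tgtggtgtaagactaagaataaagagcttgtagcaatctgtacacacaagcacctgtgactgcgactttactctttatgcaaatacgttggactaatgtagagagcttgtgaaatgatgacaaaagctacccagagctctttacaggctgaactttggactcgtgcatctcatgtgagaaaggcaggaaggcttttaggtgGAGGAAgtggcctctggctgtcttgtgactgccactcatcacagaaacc
Laptm5: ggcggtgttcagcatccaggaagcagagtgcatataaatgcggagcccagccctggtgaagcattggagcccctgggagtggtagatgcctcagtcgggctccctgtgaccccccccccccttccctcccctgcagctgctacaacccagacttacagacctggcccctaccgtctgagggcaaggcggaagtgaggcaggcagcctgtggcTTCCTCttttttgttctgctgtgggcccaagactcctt
Itgam: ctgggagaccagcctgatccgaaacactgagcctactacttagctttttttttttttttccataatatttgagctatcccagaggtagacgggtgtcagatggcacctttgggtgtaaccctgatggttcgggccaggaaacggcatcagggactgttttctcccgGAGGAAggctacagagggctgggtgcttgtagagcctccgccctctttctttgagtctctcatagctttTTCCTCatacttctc
P2ry13: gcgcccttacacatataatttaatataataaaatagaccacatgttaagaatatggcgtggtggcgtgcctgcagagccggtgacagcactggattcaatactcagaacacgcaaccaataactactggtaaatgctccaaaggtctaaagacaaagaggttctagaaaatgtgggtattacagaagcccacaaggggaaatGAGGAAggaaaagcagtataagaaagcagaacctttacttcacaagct

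The same order of groups was seen when microglial genes were chosen from other mice. Genes were ranked by their level in microglial pull-downs relative to the unbound RNA of the Chrm3 and Chrm4 lines under saline (5 libraries of each fraction), which share no library with the groups compared here. The genes themselves were partly shared, since 25 of the first 50 and 39 of the first 200 were on the homeostatic list. Counts over these ranks thus in part repeat those of the list and are not separate support. Of the first 50 genes, 50 had a lower mean of log2 values in IL34-KO, 20 (40.0%) lay wholly below the controls, and the median ratio of mean RPKM was 0.625 (middle 50% of genes 0.571 to 0.715). The median ratio was 0.730 for ranks 51 to 100, 0.751 for ranks 101 to 200, 0.869 for ranks 201 to 400, 0.927 for ranks 401 to 800 and 0.958 for ranks 801 to 1600, against 0.974 over all 17376 ranked genes. The share wholly below the controls was 18%, 14%, 6.0%, 3.75% and 0.875% over the same 5 ranges, against 1.1% of all detected genes. The difference between the groups was thus graded by microglial enrichment. Of the 200 least enriched genes, 1 (0.50%) lay wholly below, and their median ratio was 0.982.

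Of the first 200 genes, 143 were on none of the microglial or immune lists used here, and 136 of these (95.1%) were lower with 21 (14.7%) wholly below, against 64.4% and 1.1% of all detected genes. Among them were regulators of blood and myeloid cells. Runx1, a factor of blood cell formation, averaged 0.221 ± 0.0479 RPKM in IL34-KO and 0.394 ± 0.0536 RPKM in control, and Ikzf1, the lymphoid and myeloid factor Ikaros, 1.35 ± 0.206 and 1.85 ± 0.143 RPKM in the same order. Lair1, an inhibitory collagen receptor, had 1.57, 1.25, 1.11 and 1.32 RPKM in IL34-KO and 2.21, 2.26, 1.74 and 2.21 RPKM in control (log2 change -0.42 ± 0.09 SE, adjusted p = 0.903). Rnase4, a secreted ribonuclease, had 1.56, 1.08, 0.886 and 1.21 RPKM in IL34-KO and 2.29, 2.1, 1.80 and 1.80 RPKM in control (ratio 0.594, adjusted p = 0.915). Havcr2, the checkpoint receptor TIM-3, averaged 0.817 ± 0.0621 RPKM in IL34-KO and 1.19 ± 0.127 RPKM in control. Lcp2, an adaptor of immune receptor signalling, and Abi3, an actin regulator of myeloid cells, had ratios of 0.555 and 0.407, Abi3 at levels of at most 0.108 RPKM. For all 7 of these genes every IL34-KO library lay below every control, and they were picked from the 21 with that property.

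**Figure D3:**
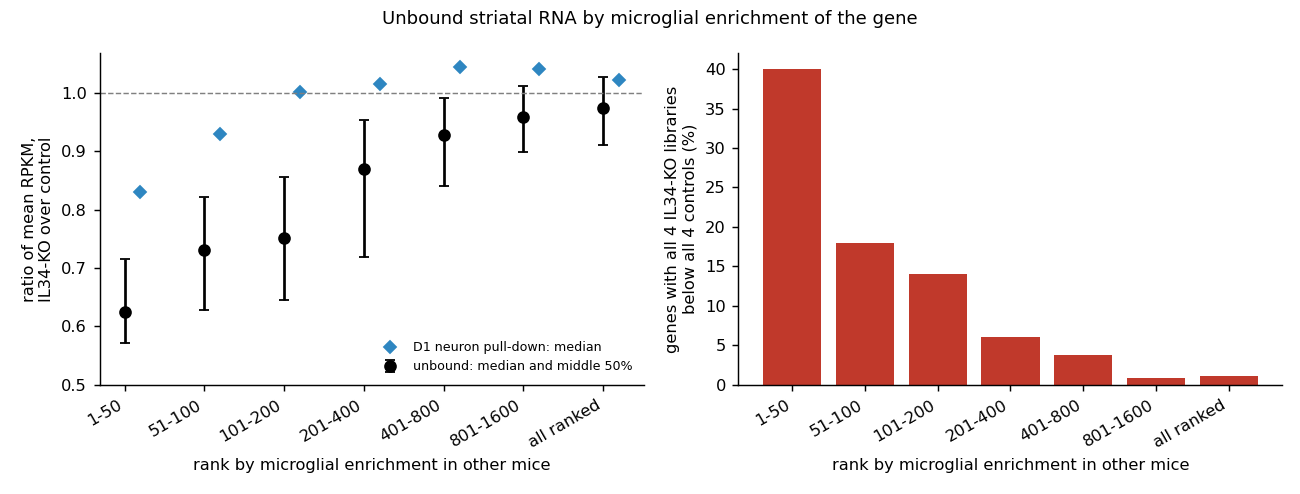
Left, median ratio of mean RPKM in unbound IL34-KO over unbound control libraries (black points, bars span the middle 50% of genes) and the median in the D1 neuron pull-downs (blue diamonds), by rank of microglial enrichment in other mice. Right, the percentage of genes with all 4 IL34-KO libraries below all 4 controls, which is 40.0% for ranks 1 to 50 and 1.1% for all genes.

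The order of the groups was also present without the libraries that stood apart. Without library 1 of each group, the 2 with the most Slc17a7, 34 of the 48 homeostatic genes lay wholly below the controls and 0 wholly above, against 8.15% and 1.29% of all genes, and 39 of the first 50 ranked genes lay wholly below. Without IL34-KO library 1 alone the counts were also 34 of 48 and 39 of 50, while 5.95% of all genes lay wholly below. Without IL34-KO libraries 3 and 4, which held Prl and Gh, 25 of 48 lay wholly below and 1 above (4.82% and 2.58% of all genes). After scaling to a common median, 27 of 48 lay wholly below and 0 above, against 1.13% and 0.736% of all genes.

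**Figure D4:**
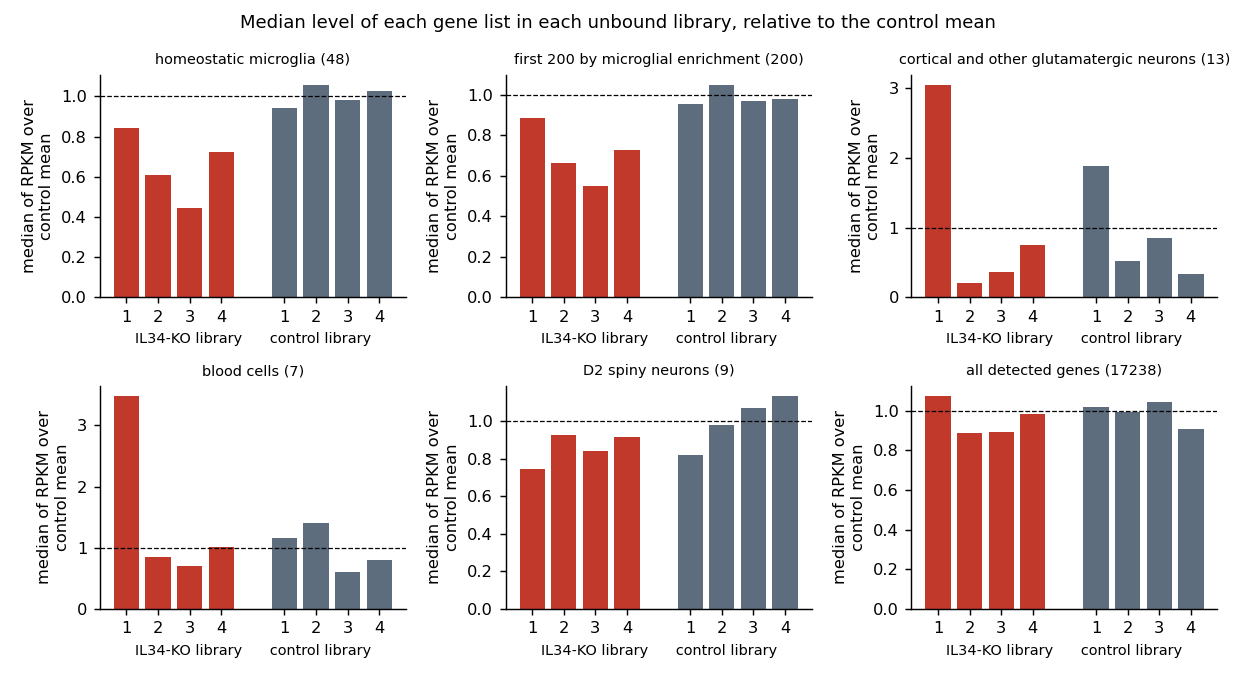
Median over a gene list of each unbound library's RPKM divided by the control mean, IL34-KO libraries in red and controls in grey, with the number of genes in brackets and a dashed line at 1. The 4 IL34-KO libraries are below the 4 controls for both microglial lists, while the cortical and blood lists peak in library 1 of the IL34-KO group.

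Complement and immune receptor genes were mostly lower. C1qb, a chain of the initiating complement complex that tags synapses, had 10.0, 7.49, 4.46 and 6.25 RPKM in IL34-KO and 9.87, 12.1, 9.40 and 11.6 RPKM in control (ratio 0.657, unadjusted p = 0.00580). C1qa and C1qc, the other chains, had ratios of 0.692 and 0.727. Of 10 complement genes 9 were lower and 0 wholly below (median ratio 0.722), and the median level of the list in IL34-KO library 1, 1.01 relative to the control mean, lay among the controls (0.906 to 1.12). All 11 genes of Fc receptors and their signalling were lower, 1 of them wholly (median ratio 0.668), for instance Fcgr3, an activating IgG receptor, with 1.59, 0.771, 0.739 and 0.693 RPKM in IL34-KO and 1.59, 2.17, 1.38 and 1.60 RPKM in control. Btk, a kinase downstream of these receptors, was the member without overlap, at 0.0358 ± 0.00580 RPKM in IL34-KO and 0.103 ± 0.00954 RPKM in control. It was near the lower end of measurement and below the filter for a test. Of all detected genes, 64.4% were lower and 1.1% lay wholly below the controls.

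Antigen presentation, interferon and disease-associated genes gave 0 members without overlap, though most were lower. Of all detected genes, 64.4% were lower and 1.1% lay wholly below the controls. B2m, the light chain of class I molecules, had 75.4, 47.3, 41.4 and 43.2 RPKM in IL34-KO and 76.5, 69.8, 58.4 and 56.6 RPKM in control (ratio 0.793, adjusted p = 1), and 9 of 10 genes of antigen presentation were lower with 0 wholly below (median ratio 0.736). Of 15 interferon response genes 14 were lower (median ratio 0.913), but the sensor gene Oasl2 ranged from 0.293 to 1.62 RPKM in IL34-KO and from 0.627 to 1.63 RPKM in control. Genes of disease-associated microglia were lower in 14 of 20 with a median ratio of 0.950 and 0 wholly below. The lowest of them was Tyrobp (ratio 0.658, limma unadjusted p = 0.0111), while other members were near their control levels. Apoe, the lipid carrier made chiefly by astrocytes, averaged 62.9 ± 14.4 RPKM in IL34-KO and 58.6 ± 5.54 RPKM in control, Axl, a phagocytic receptor kinase, 2.55 ± 0.389 and 2.50 ± 0.264 RPKM, and Lyz2, a lysozyme of myeloid cells, 2.01 ± 0.866 and 2.24 ± 0.234 RPKM in the same order.

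Macrophages at the vessels and meninges also depend on Csf1r, and their markers were scarce here. Of 12 genes 8 (66.7%) were lower, near the 64.4% of all detected genes, and 1 of them, Pf4, lay wholly below (1.1% of all), with a median ratio of 0.914. Their summed level was 2.65 to 3.03 RPKM in IL34-KO and 3.14 to 3.39 RPKM in control. Cd163, the 1 member above the filter for a test, averaged 1.12 ± 0.287 RPKM in IL34-KO and 1.17 ± 0.219 RPKM in control, with overlap. It was higher in the D1 neuron pull-downs, at 2.31 and 2.44 RPKM in the same order. Mrc1, the mannose receptor, averaged 0.143 ± 0.0336 RPKM in IL34-KO and 0.157 ± 0.0314 RPKM in control. Lyve1, a hyaluronan receptor, averaged 0.135 ± 0.0841 and 0.173 ± 0.0851 RPKM in the same order. Both overlapped. Pf4, a chemokine of platelets and border macrophages, had 0.0344, 0.117, 0.0549 and 0.10 RPKM in IL34-KO and 0.312, 0.165, 0.219 and 0.383 RPKM in control, at levels near the lower end of measurement.

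The D1 neuron pull-downs of the same line held less microglial RNA than the unbound fraction. Over the first 50 ranked genes, the median of the control means was 0.472 RPKM there and 1.65 RPKM in unbound RNA. P2ry12 had 1.04, 0.499 and 0.859 RPKM in 3 IL34-KO pull-downs and 1.26, 1.67, 0.776 and 0.894 RPKM in 4 controls, with overlap. The median ratio of mean RPKM over the 48 homeostatic genes was 0.918 in the pull-downs, against 1.02 for all detected genes. Over the first 50 ranked genes it was 0.830. Single genes differed, with pull-down ratios of 0.522 for Siglech, 0.631 for Cx3cr1 and 0.772 for Csf1r, against 1.05 for Tmem119 and 1.20 for Olfml3. Some microglial genes were thus lower in the pull-downs too. The difference between the change in unbound RNA and that in the pull-down was tested by limma on all 15 libraries, and 0 of 10266 genes passed the adjusted threshold in either direction (0%). Unadjusted, 94 were lower and 6 higher (0.916% and 0.0584%), and voom gave 54 and 36 with 0 calls. For P2ry12 this difference was -0.56 on the log2 scale (unadjusted p = 0.0365, adjusted p = 1) and for Tmem119 -0.55 (unadjusted p = 0.00418, adjusted p = 1). The differences of both genes thus missed the threshold.

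Genes of striatal projection neurons gave 0 members without overlap. Of 11 D1 neuron genes 7 were lower and 4 higher, with a median ratio of 0.999. Tac1, the substance P precursor of D1 neurons, had 110, 152, 132 and 122 RPKM in IL34-KO and 111, 123, 139 and 150 RPKM in control, and Pdyn, the dynorphin precursor, averaged 9.69 ± 1.92 and 10.2 ± 1.64 RPKM in the same order. Drd1a had 28.7, 56.8, 40.6 and 34.8 RPKM in IL34-KO and 29.4, 30.7, 33.4 and 37.4 RPKM in control. All 9 D2 neuron genes were lower, 0 of them wholly, with a median ratio of 0.890, against 0.974 for all detected genes. Of all detected genes, 64.4% were lower and 1.1% wholly below. Of 19 signalling genes that both kinds of spiny neuron share, 16 were lower with a median ratio of 0.929. Penk, the enkephalin precursor of D2 neurons, had 241, 334, 295 and 333 RPKM in IL34-KO and 257, 326, 355 and 391 RPKM in control (log2 change -0.14, adjusted p = 1). Drd2 averaged 72.0 ± 12.5 RPKM in IL34-KO and 75.3 ± 12.6 RPKM in control, and Gpr6, an orphan receptor of D2 neurons, 10.3 ± 1.02 and 12.1 ± 1.76 RPKM. Over the D2 list, the lowest median level of each group relative to the control mean was that of library 1 (0.743 in IL34-KO, 0.819 in control), which held the most cortical RNA, and the part of this in the result was not tested.

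Enzymes and receptors of the ATP and adenosine pathway, through which microglia act on neurons, gave no member without overlap. Of 18 genes 13 were lower and 5 higher (median ratio 0.974), while 64.4% of all detected genes were lower and 1.1% wholly below. Entpd1, the ectoenzyme CD39 that removes phosphates from ATP and ADP, averaged 1.66 ± 0.212 RPKM in IL34-KO and 1.99 ± 0.478 RPKM in control. Nt5e, the enzyme CD73 that makes adenosine and is high in D2 neurons, averaged 2.58 ± 0.993 and 3.12 ± 0.805 RPKM in the same order. Adora1 averaged 11.1 ± 2.32 RPKM in IL34-KO and 11.8 ± 1.12 RPKM in control, and Adora2a, the adenosine receptor of D2 neurons, 14.3 ± 4.12 and 16.6 ± 4.65 RPKM. All of these had an adjusted p of 1 by limma.

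Activity-induced early genes varied more between libraries than between groups. Of 33 genes 22 were lower and 11 higher, with a median ratio of 0.960 and 0 without overlap. Among all detected genes, 64.4% were lower and 1.1% lay wholly below the controls. Npas4, a factor that neurons induce on calcium entry, had 1.80, 1.58, 0.814 and 6.33 RPKM in IL34-KO and 0.502, 0.650, 0.634 and 3.40 RPKM in control, library 4 being the highest in each group. Fos had 2.42, 1.71, 1.33 and 3.10 RPKM in IL34-KO and 2.34, 2.09, 0.937 and 4.95 RPKM in control. Arc, a synaptic early gene, averaged 15.9 ± 7.26 and 14.1 ± 4.35 RPKM in the same order.

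Astrocytes, oligodendrocytes, endothelium and the mitochondrial genome gave 0 genes with all IL34-KO libraries on 1 side of the controls. Of 17 astrocyte genes 9 were lower and 8 higher (median ratio 1.00), and Gfap, the filament protein of reactive astrocytes, averaged 2.82 ± 0.945 RPKM in IL34-KO and 3.40 ± 0.793 RPKM in control. Of 16 oligodendrocyte genes 15 were lower with a median ratio of 0.934, and Mbp, a myelin protein, averaged 96.5 ± 21.5 and 94.8 ± 16.8 RPKM. The median ratio was 0.911 for 14 endothelial genes and 1.06 for 13 genes of the mitochondrial genome, of which 10 were higher. Of 12 genes of oligodendrocyte precursors 10 were lower (median ratio 0.934), and 1, the growth factor receptor gene Pdgfra, lay wholly below, at 1.93, 1.85, 1.65 and 1.88 RPKM in IL34-KO and 2.07, 2.11, 2.16 and 2.05 RPKM in control. Of 10 genes of pericytes and smooth muscle 9 were lower (median ratio 0.834), and 1, the smooth muscle myosin gene Myh11, lay wholly below, at 0.0820, 0.0824, 0.0630 and 0.0311 RPKM in IL34-KO and 0.182, 0.0840, 0.0928 and 0.142 RPKM in control. Myh11 was near the lower end of measurement, and both genes were chosen after their values were seen. Among all detected genes, 64.4% were lower and 1.1% lay wholly below the controls.

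Lists of neuronal function and of metabolism stayed close to the median of all genes. Of 20 glutamate receptor genes 16 were lower and of 14 GABA receptor genes 12, with median ratios of 0.953 and 0.957 and 0 without overlap. Of 23 genes of synaptic vesicle fusion 18 were lower (median ratio 0.972), and of 79 cytosolic ribosomal protein genes 64 (median ratio 0.979). Of 82 genes of the respiratory chain and ATP synthase 47 were lower and 35 higher, with a median ratio of 0.999. Over all detected genes, 64.4% were lower. Around the targeted locus, 32 genes within 1 Mb of Il34 were detected, 16 lower and 16 higher with 0 without overlap, so the neighbours of Il34 showed no common direction. Choroid plexus genes varied by library, with Ttr, the thyroid hormone carrier of the choroid plexus, at 26.4, 90.9, 13.4 and 11 RPKM in IL34-KO and 35, 17.7, 57.3 and 11.1 RPKM in control.

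**Figure D5:**
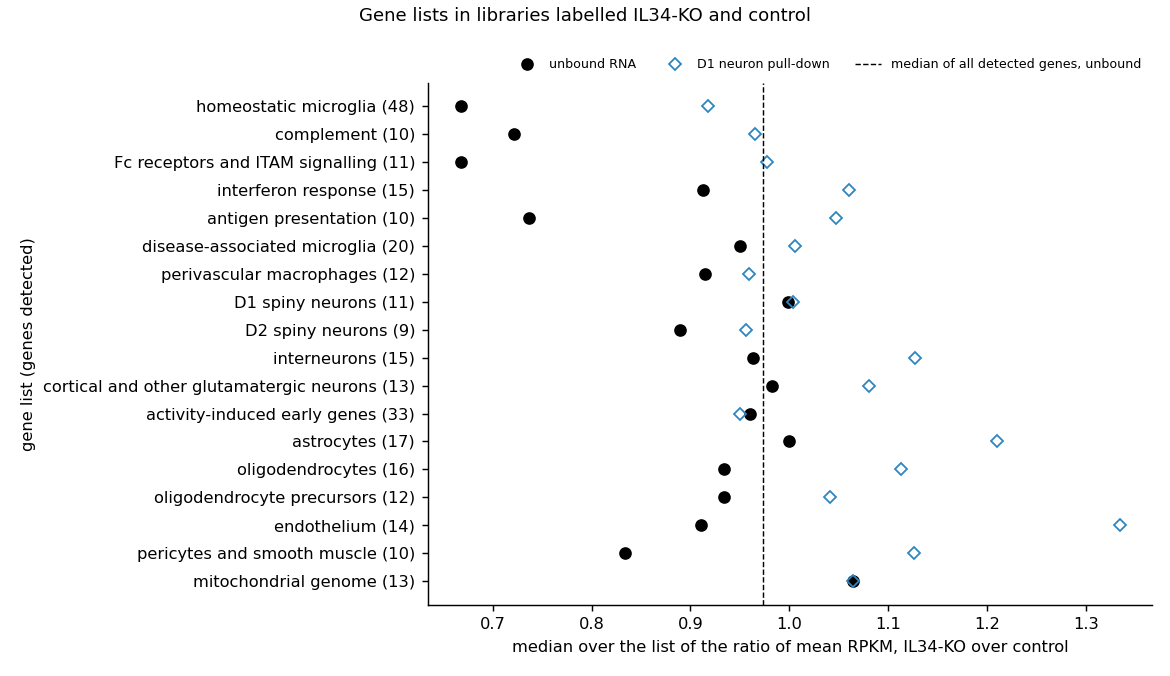
Median over each gene list of the ratio of mean RPKM, IL34-KO over control, in unbound RNA (black points) and in the D1 neuron pull-down (open diamonds), with the number of detected genes in brackets. Homeostatic microglial genes and Fc receptor genes have the lowest unbound medians shown (both 0.668), and the dashed line marks the median of all detected genes (0.974).

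The smallest p of all 9853 genes tested was that of Gm11091, a predicted gene outside the microglial set and without a position in GENCODE M21. It had 0, 1.08, 0 and 0 RPKM in IL34-KO and 3.48, 1.15, 2.44 and 2.14 RPKM in control (unadjusted p = 9.58e-05, adjusted p = 0.622). Without IL34-KO library 2 it was the 1 gene that limma called. Every D1 neuron pull-down had 0 RPKM of it.

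The higher side was small in the unscaled values, with 15 genes at an unadjusted p under 0.05 by limma, against 60 after scaling to a common median. Flrt2, an adhesion protein of neurons that guides axons, had 9.14, 6.90, 5.85 and 10.7 RPKM in IL34-KO and 6.27, 5.34, 5.75 and 5.0 RPKM in control, with IL34-KO library 3 inside the control range (ratio 1.46, unadjusted p = 0.0109, adjusted p = 1). In the D1 neuron pull-downs its groups stood further apart, at 19.3, 17 and 26.1 RPKM in IL34-KO and 7.89, 7.51, 8.07 and 8.70 RPKM in control, and the difference between the changes was -0.81 on the log2 scale (unadjusted p = 0.00182, adjusted p = 1). Gm10311, a predicted gene, had 3.38, 2.94, 2.66 and 3.35 RPKM in IL34-KO and 2.55, 2.38, 2.12 and 1.97 RPKM in control, without overlap. Atf5, a stress-response factor, had 2.34, 2.26, 1.92 and 2.29 RPKM in IL34-KO and 1.71, 1.63, 1.87 and 1.65 RPKM in control, also without overlap (ratio 1.29, unadjusted p = 0.0110, adjusted p = 1). In the pull-downs Gm10311 went the other way, at 3.17 ± 0.255 RPKM in IL34-KO and 5.03 ± 1.65 RPKM in control, with overlap. Its difference between the changes was 0.82 on the log2 scale (limma unadjusted p = 0.00149) and missed the adjusted threshold. Atf5 was higher there too, at 2.50 RPKM in IL34-KO and 1.81 RPKM in control. Serpina3n, a protease inhibitor of reactive astrocytes, had 1.66, 4.90, 3.21 and 0.684 RPKM in IL34-KO and 1.29, 0.833, 0.993 and 0.392 RPKM in control, where IL34-KO library 4 lay among the controls.

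Single libraries stood out at some genes of the D1 neuron list. Sfxn1, which lies next to Drd1a on chromosome 13, had 50, 228, 34 and 49.3 RPKM in IL34-KO and 64.9, 70.8, 76.1 and 47.9 RPKM in control, and Drd1a was highest in the same library 2. In the pull-downs 1 of 3 IL34-KO libraries had 912 RPKM of Sfxn1 and 275 RPKM of Drd1a, while the others of both groups had 143 to 284 RPKM of Sfxn1 and 132 to 168 RPKM of Drd1a. Eya1, a transcriptional cofactor enriched in D1 neurons, had 28.2, 35.8, 2.32 and 38.9 RPKM in IL34-KO and 36.5, 40.3, 41.8 and 42.2 RPKM in control, so that its mean difference rested on IL34-KO library 3.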

How the data were processed

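Per the labels' protocols, RNA was amplified with the NuGEN Ovation V2 kit and sequenced from 1 end on a NextSeq 500 (75 cycles). Tools named in the submitters' processing notes are TopHat2 2.1.0, HTSeq 0.6.0, bcl2fastq and DESeq2, with the build mm9; their roles and the annotation are not given in the sources used here. The authors deposited RPKM, used here without rescaling. Columns were joined to groups by heading; a library's number is only its place within its group. Whole reads were recovered from the steps between RPKM values (18102 genes, 100% whole within 0.0001 reads); they are not independent molecules, so depth bounds counting error only.

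Genes with a mean of at least 1 RPKM were fitted on log2(RPKM + 1) with limma 3.58.1 in R 4.3.3 (eBayes with trend; two-sided; threshold 0.05 after Benjamini-Hochberg adjustment), after the fit was checked on simulated data. Log2 changes on this scale understate those of low genes. Counts over lists use genes above 0 in 2 or more of the 8 libraries. Alternatives were other pseudocounts, filters, scalings and covariates, voom on recovered reads, and leaving libraries out.

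Named are members of 5 lists (microglial, Csf1r, D1, D2, purinergic), the smallest p in each direction and up to 4 genes of other lists. Values of single libraries, Prl, Gh, Ptprz1, other genes outside this rule, the enrichment ranks and the promoter motif were chosen after values were seen. The members and all 46 lists were chosen with earlier results of these data known. The microglial ranking used the other deposited RPKM table, where 147 of 22707 lines hold no values. Positions are from GENCODE M21 (GRCm38, 92.8% of IDs placed), not mm9. Single nuclei were not analysed here. Some members of the lists are counted but not reported here by name.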

Additional observations from a re-analysis of the deposited data

Results flagged for a closer look

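Of 188 groups of 4 values looked at, 14 held a library far from the other 3 of its group. Chance alone flags about 1 in 20 groups, or 9.4 here, if they are chosen without sight of the values. Some of these genes were chosen after values were seen, and the list sums contain some of them, so 14 cannot be weighed against 9.4. In IL34-KO library 1 these were Slc17a7 (21.3 RPKM, others 1.08 to 2.82), the sum of the cortical markers (119.9, others 27.3 to 40.6), Mef2c (42.5, others 21.7 to 25.1), Adora1 (14.6, others 9.48 to 10.3), Mbp (128.5, others 82.1 to 89.4), Hbb-b1, a haemoglobin chain (27.4, others 6.09 to 6.75), the sum of the blood genes (50.8, others 11.2 to 13.5) and Fcgr3 (1.59, others 0.693 to 0.771). In IL34-KO library 2 they were Sfxn1 (228 RPKM, others 34 to 50) and Gm11091 (1.08, others 0). In control library 3 they were Lair1 (1.74 RPKM, others 2.21 to 2.26) and Oasl2 (0.627, others 1.47 to 1.63), and in control library 4 Tgfbr1 (2.56, others 2.34 to 2.38) and Npas4 (3.40, others 0.502 to 0.650). Since 8 of the 14 fell in IL34-KO library 1, the homeostatic counts without it are given above.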

How the results depend on the processing

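Pseudocounts of 0.1 and 0.25, no filter, a filter at 5 RPKM, both scalings, voom, no trend, the covariates Ddx3y, depth and, chosen after the data were seen, Slc17a7, the fit on all 15 libraries and a threshold of 0.01 each called 0 genes in unbound RNA. Leaving out 1 library gave 0 to 1 calls, the 1 being Gm11091 without IL34-KO library 2. The difference between fractions gave 0 calls under every alternative run. Genes lower at an unadjusted p under 0.05 numbered 53 to 500 when 1 library was left out, 500 of them without IL34-KO library 1, and 201 with depth as a covariate. Homeostatic genes wholly below the controls numbered 23 to 34 of 48 when 1 library was left out, and those lower on average 44 to 47. Of the first 50 ranked genes 20 to 39 lay wholly below when 1 library was left out, and 39 without library 1 of each group. Over all genes the count was 249 to 1035 when 1 library was left out, 1417 without library 1 of each group, 839 without IL34-KO libraries 3 and 4, and 191 with all; fewer libraries overlap less by construction. Of 69 named genes that were tested, 46 kept their sign in all alternatives, as did 20 of 23 homeostatic ones, the exceptions being Mef2c, Mertk and Lgmn. No paired analysis was possible because the columns carry no replicate numbers. Genes below about 1 RPKM rest on few reads.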
